A study of Homo sapiens with 18 samples.

Results

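Clones of the Ewing sarcoma lines TC32 and TC71 that had been selected for resistance to the small molecule YK-4-279 were compared with the parental cells they came from, and changes shared by clones of both lines were sought. Every array labelled as a selected clone (6) was set against every untreated parental array (6), with cell line as a block, so 12 of the 18 arrays of the series were used. The resistant clones were C1, C4 and CP of TC32 and C3, C4A and C5 of TC71, with 1 array per clone. The labels do not explain the name CP, so it may not be a single clone, and it is called a clone here for brevity. Selection had taken 7 months in rising doses of YK-4-279 up to 3 µM. Whether the clones were still in the compound when RNA was taken is not given in the labels. The parental cells had received no compound, with 3 arrays per line. The remaining 6 arrays, of parental cells given 3 µM YK-4-279 for 72 h, are quoted below as values with no test, since any comparison of them with the parental arrays would share those arrays. A clone descends from few cells and is a model of one outcome of selection. Nothing in the labels ties the parental replicates to separate cultures, so the spread among them may be technical. Every p-value refers only to array-to-array spread, which joins differences between clones with the spread of parental replicates. In the pooled test it also holds any difference between the lines in the change.

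Ewing sarcoma is a tumour of bone and soft tissue in which the fusion protein EWS-FLI1, made from EWSR1 and the ETS transcription factor gene FLI1, switches target genes on and off. YK-4-279 was designed to disturb the contact between EWS-FLI1 and RNA helicase A, the product of DHX9. Resistance to a drug can arise with changes in its target, in drug export by ABC transporters, or in other pathways that support growth.

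Each value is the mean over a gene's probe sets of log2 levels, each relative to the probe set's own median over the 18 arrays. Such a value carries no absolute level and does not rank genes against each other. Of 9 Ewing sarcoma markers measured, 7 had a positive change in the clones, against 4802 of all 12750 genes. Among the markers, CCND1 passed the test described below. The markers' median difference was 0.41 (0.59 in TC32 and 0.10 in TC71), against -0.004 over all 12750 genes. By clone, their median difference from the line's parental mean was 0.26 in C1, 0.47 in C4 and 0.72 in CP. In TC71 clones C3, C4A and C5 it was -0.05, 0.17 and 0.26. The markers and all genes are unlike sets, since all 9 markers but only 8132 of the 12750 genes had a standard deviation of at least 0.1. CD99, a surface marker among the 9, changed by -0.32 ± 0.21 (limma adjusted p = 0.532). TC32 parental replicate 1 stood apart from its group. Over the 1794 genes with a standard deviation (SD) above 0.5, its root mean square distance was 0.69 to 0.81 to the TC71 parental arrays but 1.04 and 1.19 to the other TC32 parental arrays. Where a named gene lost its call without this array, the adjusted p without it is given below. Control probe sets at the 3′ and 5′ ends of actin mRNA differed by -0.36 to 0.27 in the clones (median 0.10) and by -0.31 to -0.09 in the parental arrays (median -0.28), on the log2 scale. For GAPDH the range was 0.004 to 0.12 in the clones and -0.12 to 0.04 in the parental arrays. The 18S rRNA control was at -0.36 to 0.64 in the clones (median 0.35) and at -0.66 to 0.05 in the parental arrays (median -0.33). The part of these differences in the results was not tested.

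In limma's moderated test, 182 of 12750 genes (1.43%) differed between clones and parental arrays at an adjusted p under 0.05. Of these, 90 rose in the clones (0.706%) and 92 fell (0.722%). A gene was called common when it passed this test and, within each line separately, all 3 clones lay beyond all 3 parental arrays in the same direction. This held for 84 rises (0.659%) and 89 falls (0.698%), or 173 genes (1.36%). Without the test, 198 genes (1.55%) were higher in every clone of both lines and 261 (2.05%) lower, while 121 (0.949%) separated in opposite directions in the 2 lines. At least 2-fold changes in both lines were seen for 71 genes upward (0.557%) and 58 downward (0.455%). Opposite changes of this size numbered 9 genes higher in TC32 clones and lower in TC71 clones (0.0706%), and 26 the other way (0.204%). Across all genes, the changes of the lines, which share no arrays, correlated with a Pearson r of 0.23 and a Spearman rho of 0.23. Genes are not independent replicates, and these values describe the arrays only.

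Most called changes were moderate, with a median size of 0.69 on the log2 scale, and 48 of the 182 genes were changed at least 2-fold (26 higher, 22 lower). Every clone carried the common pattern. The median of the 84 common rises, as the difference from the line's parental arrays, was 0.62 in C1, 0.79 in C4 and 0.73 in CP, and 0.69 in C3, 0.57 in C4A and 0.58 in C5. The median of the 89 common falls was -0.58, -0.85 and -0.66 in the TC32 clones, and -0.80, -0.60 and -0.56 in the TC71 clones. These genes were chosen for such values, which are a description. The number of calls depended on single arrays. Leaving out 1 parental array gave 61 calls without TC32 replicate 1, 20 without TC32 replicate 2 and 24 without TC32 replicate 3. For TC71 it gave 18 calls without parental replicate 1, 82 without replicate 2 and 26 without replicate 3. Leaving out 1 clone gave 145 calls without C1, 65 without C4, 1116 without CP, 118 without C3, 276 without C4A and 355 without C5. The clone CP array had a median gene value of 0.030, against -0.013 to 0.005 on the other arrays. With CP left out and every remaining array centred on its own median, 103 genes passed. In all 12 fits that left out 1 array 15 of the 173 common genes passed. With TC32 parental replicate 1 left out, 58 of the 173 passed. Their direction could not change there, because they were chosen with all clones beyond all parental arrays of the line.

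**Figure D1:**
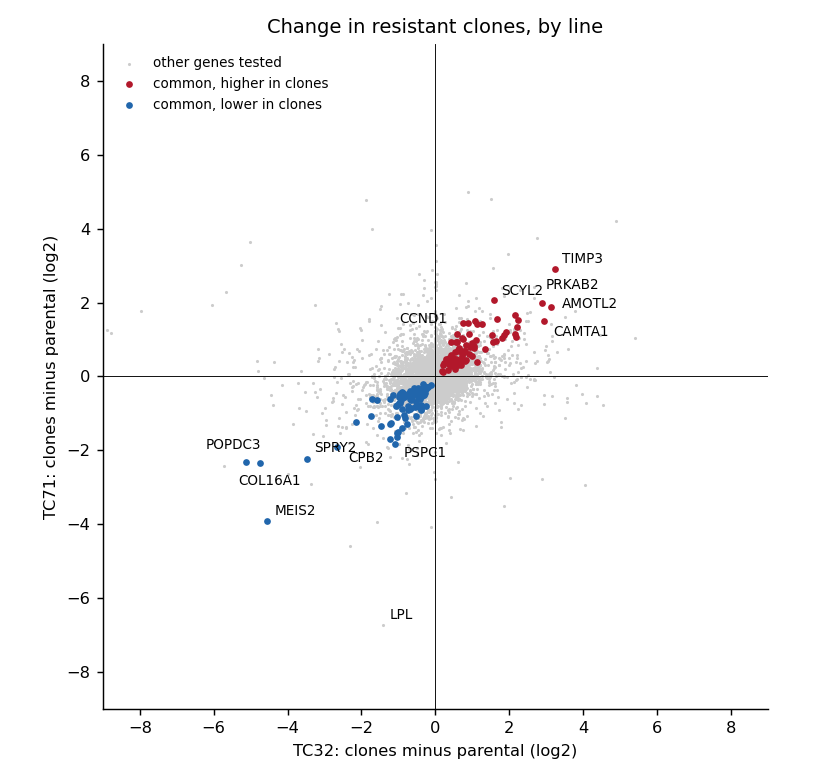
Change of each of 12750 genes in TC32 clones (horizontal axis) and TC71 clones (vertical axis), each relative to the parental arrays of the line, on the log2 scale. Red points are the 84 common rises, blue points the 89 common falls and grey points all other genes. Among the common genes TIMP3 and MEIS2 have the largest pooled rise and fall, and LPL, which did not pass (adjusted p = 0.107), lies at -1.43 in TC32 and -6.72 in TC71. The TC32 value of LPL rests on parental replicate 1, at 4.24. Parental replicates 2 and 3 were at -0.01 and -0.06, and the TC32 clones at -0.07, -0.01 and -0.03.

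The largest common rise was in TIMP3, an inhibitor of matrix metalloproteinases that is held in the extracellular matrix. Its values were 1.93, 1.77 and 1.41 in TC32 clones C1, C4 and CP, against -0.67, -1.70 and -2.24 in TC32 parental arrays. In TC71 they were 2.89, 2.16 and 1.85 in clones C3, C4A and C5, against -1.25, 0.01 and -0.60 in parental arrays. All 6 clones lay above all 6 parental arrays. The pooled change was 3.08 ± 0.31 (SE) on the log2 scale, or 8.44-fold (limma adjusted p = 0.00425). TIMP3 passed in all 12 fits that left out 1 array, and its highest adjusted p among them was 0.0212, without TC71 parental replicate 3. Its 4 probe sets gave pooled changes of 3.98, 2.83, 2.82 and 2.68. After 72 h in the compound TIMP3 was at -3.06 ± 0.09 in TC32 and 0.17 ± 0.05 in TC71 (SD, n = 3 each). The gene lies at chr22:33196807-33259030 in the array annotation, for which the sources used here give no build. Of 32 matrix proteases and TIMP inhibitors measured, TIMP3 rose and 31 did not pass (median change -0.001). TIMP1 changed by 0.22 ± 0.28 (adjusted p = 0.790) and TIMP2 by 0.03 ± 0.03 (adjusted p = 0.772).

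AMOTL2, a junction protein of the angiomotin family that binds the coactivator YAP and is itself a target of YAP and TEAD factors, was the next largest. It stood at 1.94, 2.10 and 1.09 in TC32 clones against -0.47, -1.80 and -2.01 in parental arrays, and at 1.31, 0.72 and 1.87 in TC71 clones against -0.88, -0.05 and -0.86 in parental arrays. No clone overlapped a parental array. The change was 2.52 ± 0.38 (adjusted p = 0.0226) and passed in 8 of the 12 fits that left out 1 array, with a highest adjusted p of 0.0754 without TC71 parental replicate 1. TEAD1, which encodes one of the DNA-binding TEAD factors, rose by 1.62 ± 0.33 (adjusted p = 0.0491). Its values were 2.11, 2.22 and 1.30 in TC32 clones against 0.02, -0.10 and -0.83 in parental arrays. In TC71 they were 1.58, 0.98 and 0.02 in clones against -0.02, -0.12 and -0.49 in parental arrays, so clone C5 lay just above the parental range. TEAD1 passed in 2 of the 12 fits, its adjusted p without TC32 parental replicate 1 was 0.0869, and its highest adjusted p was 0.126 without TC32 parental replicate 2.

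Of 20 YAP and TEAD target genes measured, AMOTL2 rose, none fell and 19 did not pass. Their median change was 0.20 (0.05 in TC32 and 0.33 in TC71), and 15 had a positive change, against 4802 of all 12750 genes. These are unlike sets, since 16 of the 20 but only 8132 of all genes had an SD of at least 0.1. By clone, the list's median difference from the line's parental mean was -0.001 in C1, 0.04 in C4 and 0.04 in CP. In TC71 clones C3, C4A and C5 it was -0.01, 0.06 and 0.27, so C5 stood highest. CCN2, a secreted matrix protein and a standard readout of YAP, stood at 1.30, 1.30 and 0.33 in TC32 clones against -2.63, -2.48 and -3.33 in parental arrays. In TC71 it stood at 0.21, 0.39 and 1.74 in clones and at -3.09, -0.97 and 1.08 in parental arrays, which overlapped. Its pooled change of 2.78 ± 0.70 did not pass (adjusted p = 0.0896). CCN1 likewise did not pass (1.30 ± 0.98, adjusted p = 0.618), with TC71 parental replicate 3 at 4.66 above every clone.

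The promoter windows of TIMP3 and AMOTL2, from 250 bases before to 50 after the start site, are shown because these genes had the largest shared rises. They are RefSeq sequences of GRCh38.p14, 5′ to 3′ in the direction of transcription. AMOTL2 has 2 start sites in the table. Capitals mark a match to the TEAD motif GGAATG or its reverse complement CATTCC. The GGAA repeat GGAAGGAA, an element that EWS-FLI1 binds in longer repeats, was searched on both strands too and would also be in capitals.
TIMP3, chr22:32801455-32801754, plus strand: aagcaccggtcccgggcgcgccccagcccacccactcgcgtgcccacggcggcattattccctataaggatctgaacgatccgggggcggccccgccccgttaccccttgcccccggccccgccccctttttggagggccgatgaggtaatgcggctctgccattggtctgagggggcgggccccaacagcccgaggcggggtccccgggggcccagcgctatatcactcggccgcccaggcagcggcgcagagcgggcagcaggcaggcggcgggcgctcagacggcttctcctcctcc
AMOTL2 start site 1, chr3:134375368-134375667, minus strand: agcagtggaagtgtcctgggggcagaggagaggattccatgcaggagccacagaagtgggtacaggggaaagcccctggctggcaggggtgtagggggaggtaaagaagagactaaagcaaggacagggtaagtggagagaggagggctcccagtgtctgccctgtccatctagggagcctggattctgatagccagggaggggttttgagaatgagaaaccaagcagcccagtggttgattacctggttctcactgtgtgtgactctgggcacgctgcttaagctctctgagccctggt
AMOTL2 start site 2, chr3:134374398-134374697, minus strand: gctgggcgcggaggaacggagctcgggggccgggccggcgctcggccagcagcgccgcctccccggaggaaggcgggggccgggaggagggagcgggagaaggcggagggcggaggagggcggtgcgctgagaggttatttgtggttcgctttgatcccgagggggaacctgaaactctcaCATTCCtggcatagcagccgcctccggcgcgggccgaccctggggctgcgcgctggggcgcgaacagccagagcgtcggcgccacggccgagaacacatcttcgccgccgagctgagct
AMOTL2 start site 2 held 1 match, CATTCC, and the other 2 windows held none of these letters. The TEAD motif was found in 14% of the 35116 promoter windows of the table and the GGAA repeat in 3.67%. Of the common rises, 74 had a window, and 11 of these (14.9%) held the TEAD motif in at least 1 window, against 1572 of 9971 tested genes (15.8%). Of 75 common falls with a window, 7 held it (9.33%). The GGAA repeat was in 2 of the 74 rises (2.70%) and 3 of the 75 falls (4%), against 5.18% of tested genes. A match describes the letters and is not evidence of binding.

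A pair of transcription factors and a subunit of an energy-sensing kinase were among the largest shared rises. CAMTA1, a calmodulin-binding transcription activator, was at 1.94, 2.13 and 1.19 in TC32 clones against -1.22, -1.0 and -1.35 in parental arrays, and at 0.85, 1.09 and 0.25 in TC71 clones against -0.75, -0.94 and -0.59 in parental arrays. It did not overlap in either line, and its change of 2.22 ± 0.30 (adjusted p = 0.0168) was larger in TC32 (2.94) than in TC71 (1.49), a difference that did not pass after adjustment (adjusted p = 0.313). PRRX2, a homeobox factor of mesenchymal cells, was at 1.72, 1.18 and 0.71 in TC32 clones against -0.24, -0.66 and -0.52 in parental arrays. In TC71 it was at 1.30, 1.43 and 2.18 in clones against 0.01, 0.004 and 0.23 in parental arrays. PRRX2 rose by 1.62 ± 0.19 (adjusted p = 0.0109) and passed in all 12 fits that left out 1 array. PRKAB2, a regulatory subunit of AMP-activated protein kinase, was at 1.63, 3.65 and 1.56 in TC32 clones against -0.41, -0.68 and -0.73 in parental arrays. In TC71 it was at 1.16, 1.97 and 1.74 in clones against -0.83, 0.46 and -0.68 in parental arrays. Clone C4 was the highest array, and PRKAB2 rose by 2.43 ± 0.41 (adjusted p = 0.0340, and 0.0636 without TC32 parental replicate 1).

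DDX6, an RNA helicase of processing bodies that acts in mRNA decay and translational repression, had the smallest SE of the 24 largest rises and falls. It was at 1.78, 2.16 and 2.02 in TC32 clones against 0.02, -0.31 and -0.46 in parental arrays. In TC71 it was at 1.63, 1.10 and 1.25 in clones against -0.11, -0.45 and -0.02 in parental arrays. The rise of 1.88 ± 0.17 (3.68-fold, adjusted p = 0.00309) passed in all 12 fits that left out 1 array. At 72 h DDX6 was at 0.06 ± 0.11 in TC32 and -0.58 ± 0.34 in TC71 (SD, n = 3 each), against parental means of -0.25 in TC32 and -0.19 in TC71. The remaining large rises were NFAT5, the transcription factor of the response to osmotic stress (1.91 ± 0.36, adjusted p = 0.0405), SCYL2, a clathrin-associated pseudokinase (1.83 ± 0.30, adjusted p = 0.0289), MDFIC, an inhibitor of MyoD family factors (1.78 ± 0.36, adjusted p = 0.0472), and UTS2, the vasoactive peptide urotensin (1.56 ± 0.25, adjusted p = 0.0290). Of these 4 genes NFAT5 and MDFIC lost the call most often, passing in 2 and 3 of the 12 fits that left out 1 array. Their highest adjusted p-values, 0.107 and 0.119, came without TC32 parental replicate 2. The adjusted p without TC32 parental replicate 1 was 0.0713 for NFAT5, 0.0869 for MDFIC and 0.0602 for UTS2. UTS2 had probe sets that differed in size (0.84 and 2.28), as did MDFIC (1.24 and 2.33).

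**Figure D2:**
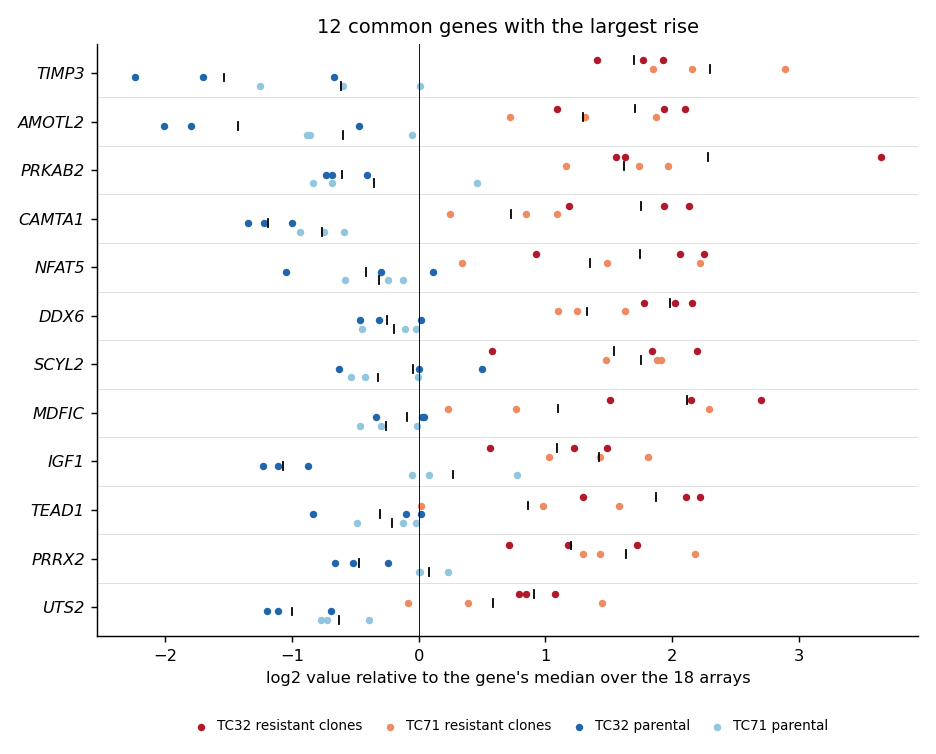
Values of the 12 common genes with the largest rise on each resistant clone and parental array, with black ticks at group means of 3 arrays. The horizontal axis is log2, with each probe set against its 18-array median and averaged per gene. In each line the clones lie to the right of the parental arrays, and clone C4 at 3.65 for PRKAB2 is the highest point.

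The largest common fall was in MEIS2, a homeobox cofactor of HOX and PBX proteins. MEIS2 was at -4.01, -5.03 and -3.97 in TC32 clones against 0.49, 0.27 and -0.09 in parental arrays. In TC71 it was at -3.85, -4.03 and 0.09 in clones C3, C4A and C5 against 1.36, 1.28 and 1.30 in parental arrays. Clone C5 lay below its parental arrays but stood far above the other 5 clones. The pooled change was -4.24 ± 0.64, or 18.9-fold lower (adjusted p = 0.0226), and it passed in 6 of the 12 fits that left out 1 array. Without TC32 parental replicate 1 it was -4.14 (adjusted p = 0.0542), and the highest adjusted p was 0.0754 without TC71 parental replicate 1. At 72 h MEIS2 was at -2.86 ± 0.76 in TC32, below the TC32 parental mean of 0.23 ± 0.29, and at 1.34 ± 0.06 in TC71, where the parental mean was 1.31 ± 0.04 (SD, n = 3 each). The gene lies at chr15:37183285-37391922 in the array annotation. Its paralog MEIS1 changed by -0.64 ± 0.20 and did not pass (adjusted p = 0.161). HOXB7, a HOX transcription factor, was at -0.95, -1.44 and -1.74 in TC32 clones against -0.08, 0.18 and 0.23 in parental arrays, and at -0.30, -1.07 and -1.36 in TC71 clones against 0.63, 0.11 and 0.56 in parental arrays. HOXB7 fell by 1.41 on the log2 scale (SE 0.20, adjusted p = 0.0191), and its 3 probe sets gave -1.31, -1.50 and -1.44.

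SPRY2, an inhibitor of receptor tyrosine kinase signalling that ERK activity induces, was lower in every clone of each line. It stood at -3.62, -4.08 and -3.73 in TC32 clones against -1.98, 0.12 and 0.86 in parental arrays. In TC71 it stood at -1.60, -2.04 and -3.20 in clones against -0.08, -0.83 and 0.80 in parental arrays. TC32 parental replicate 1 was the lowest parental array and lay below TC71 clone C3. SPRY2 fell by 2.86 on the log2 scale (SE 0.53, adjusted p = 0.0405), and the change was -3.15 without TC32 parental replicate 1 (adjusted p = 0.0420). It passed in 6 of the 12 fits that left out 1 array, with a highest adjusted p of 0.106 without TC32 parental replicate 2. At 72 h it was at 0.51 ± 0.21 in TC32 and 0.67 ± 0.74 in TC71. The gene lies at chr13:80910113-80915086 in the array annotation. Of 20 genes of ERK feedback and output, SPRY2 fell, CCND1 rose and 18 did not pass, with a median change of 0.20. SPRY1 changed by -1.19 ± 0.36 (adjusted p = 0.142) and SPRY4 by -0.003 ± 0.02 (adjusted p = 0.926).

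POPDC3, a membrane protein of the Popeye family of muscle and heart, was at -4.94, -6.04 and -5.15 in TC32 clones against -0.27, 0.16 and -0.61 in parental arrays. For TC71 the values were -0.17, -3.68 and -2.36 in clones against 0.23, 0.19 and 0.31 in parental arrays, so clone C3 lay close below the parental range. POPDC3 fell by 3.73 on the log2 scale (SE 0.67, adjusted p = 0.0381, and 0.0760 without TC32 parental replicate 1). COL16A1, a fibril-associated collagen, was at -3.63, -5.62 and -1.75 in TC32 clones against 0.45, 1.18 and 1.65 in parental arrays. TC71 values were -0.92, -2.46 and -0.57 in clones against 1.36, 0.44 and 1.31 in parental arrays. COL16A1 fell by 3.56 on the log2 scale (SE 0.72, adjusted p = 0.0475) and passed in 2 of the 12 fits that left out 1 array. Its adjusted p was 0.0864 without TC32 parental replicate 1, and the highest was 0.127 without TC32 parental replicate 2. Of 67 collagens and matrix proteins, COL16A1 fell and 66 did not pass (median change -0.005). CPB2, a plasma carboxypeptidase that slows fibrinolysis, fell by 2.28 on the log2 scale (SE 0.35, adjusted p = 0.0226, and 0.0542 without TC32 parental replicate 1). CPB2 was at -1.13, -2.90 and -3.41 in TC32 clones and -1.81, -2.23 and -1.82 in TC71 clones, and at -0.11 to 0.46 on the parental arrays. At 72 h it stood above both, at 2.98 ± 0.34 in TC32 and 1.84 ± 0.25 in TC71.

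The other large falls were 2.46- to 3.22-fold. GFOD3P fell by 1.69 on the log2 scale (adjusted p = 0.0472), but 1 of its 2 probe sets changed by -0.02 and the other by -3.36. CSK, a kinase that inhibits SRC family kinases, fell by 1.40 (adjusted p = 0.0345). PSPC1, a protein of nuclear paraspeckles, fell by 1.47 (adjusted p = 0.0191) and was at -0.31, -0.81 and -0.64 in TC32 clones against 0.30, 0.46 and 0.78 in parental arrays. In TC71 PSPC1 was at -1.44, -2.05 and -1.21 in clones against 0.42, -0.10 and 0.48 in parental arrays. ANKRD10 fell by 1.46 (adjusted p = 0.0389) and PCID2, a factor of mRNA export, by 1.30 (adjusted p = 0.0442). ANKRD10 passed in 4, and PCID2 in 3, of the 12 fits that left out 1 array. Leaving out TC32 parental replicate 1 gave an adjusted p of 0.0896 for GFOD3P, 0.0675 for CSK, 0.0675 for ANKRD10 and 0.0746 for PCID2.

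**Figure D3:**
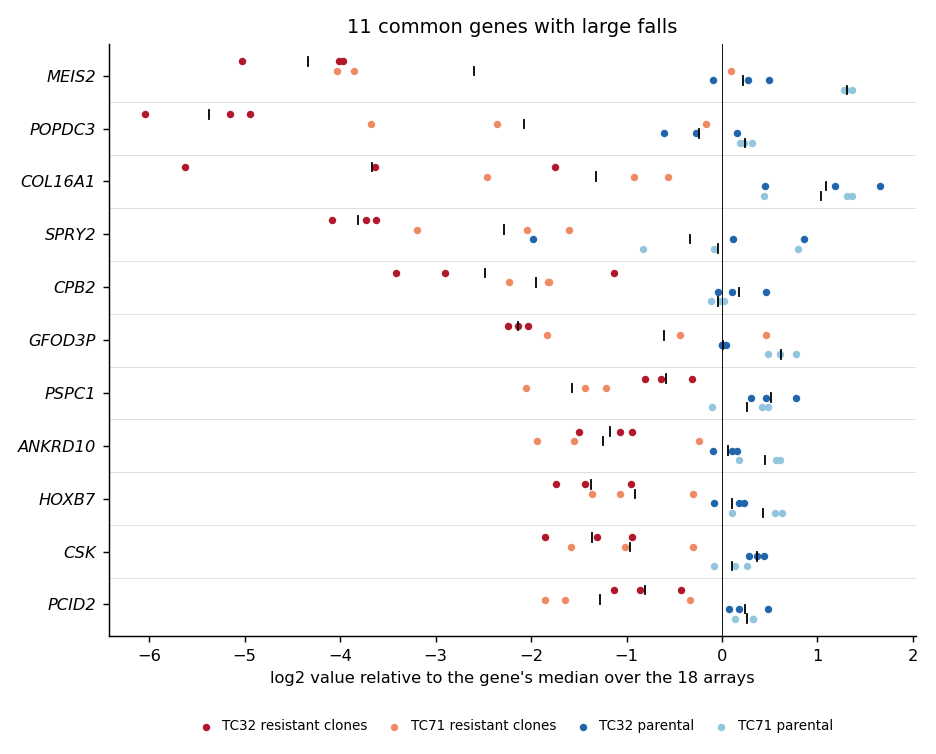
Values of 11 of the 12 common genes with the largest falls on each resistant clone and parental array, with black ticks at group means of 3 arrays. The horizontal axis is log2, with each probe set against its 18-array median and averaged per gene. In each line the clones lie to the left of the parental arrays, and clone C5 at 0.09 for MEIS2 lies far from the other clones.

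Common falls were concentrated on chromosomes 13 and 15. Of the 89 common falls, 28 lay on chromosome 13 (31.5%) and 22 on chromosome 15 (24.7%), which carry 1.75% and 2.98% of the 12632 genes with a known chromosome. RPL21 is among the 28 although its only probe set aligns in 20 places. None of the 84 common rises lay on either. The next highest count of falls was 8, on chromosome 1, or 0.613% of its 1306 genes. Chromosome 20 held 7 falls, or 2.02% of its 347 genes, and no rise. Of the 221 genes of chromosome 13, 12.7% were common falls, and of the 376 genes of chromosome 15, 5.85%, against 0.698% of all genes. MEIS2 and CSK lie on chromosome 15, and SPRY2, CPB2, PSPC1, ANKRD10 and PCID2 on chromosome 13, and 8 of the 12 largest falls lay on these chromosomes. The chromosomes were picked after the calls were seen, so these counts carry no test. They also depended on the processing, with 2 to 54 common falls on chromosome 13 and 3 to 69 on chromosome 15 over the alternatives.

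**Figure D4:**
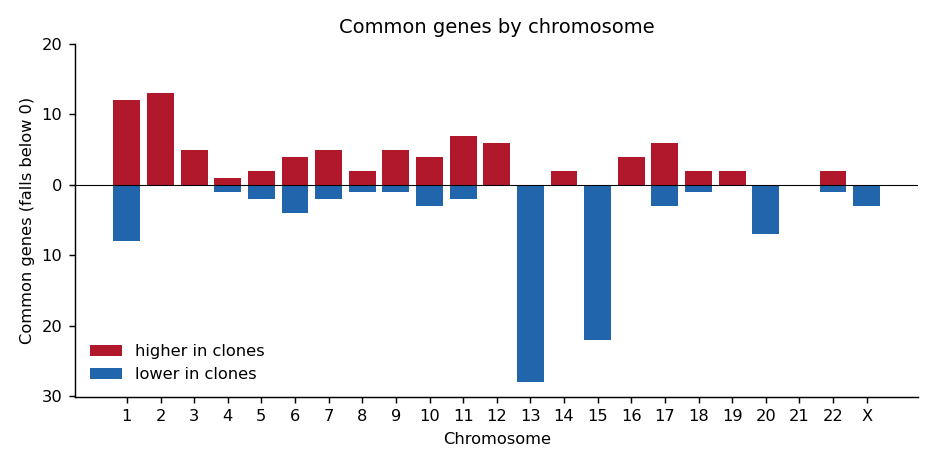
Number of common genes on each chromosome (horizontal axis), with rises as red bars above 0 and falls as blue bars below 0. Chromosome 13 holds 28 falls and chromosome 15 holds 22, and neither holds a rise.

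The shift extended beyond the called genes. Over the 152 genes of chromosome 13 with an SD of at least 0.1, the median pooled change was -0.64 (-0.40 in TC32 and -0.89 in TC71), and 95.4% were lower in the clones. Over the 257 such genes of chromosome 15 the median was -0.45 (-0.57 in TC32 and -0.28 in TC71), and 90.7% were lower. The change itself adds to a gene's SD, and over all genes, with no such filter, the medians were -0.44 for chromosome 13 (221 genes) and -0.20 for chromosome 15 (376 genes). Among genes with an SD of at least 0.1, medians of the other chromosomes ran from -0.17 on chromosome 20 to 0.17 on chromosome 11. Against the mean of the 3 parental arrays of each line, the chromosome 13 median was -0.15 in C1, -0.53 in C4 and -0.47 in CP, and -0.99 in C3, -1.12 in C4A and -0.46 in C5. Parental arrays ran from -0.13 to 0.08, and the highest clone, C1, lay only just below TC71 parental replicate 2. For chromosome 15 it was -0.57 in C1, -0.80 in C4 and -0.37 in CP, and -0.64 in C3, 0.07 in C4A and -0.25 in C5, against -0.08 to 0.04 on parental arrays. Clone C4A was thus not lowered over chromosome 15 as a whole, although its MEIS2 value was -4.03. In C4A 43.6% of these genes lay below the TC71 parental mean, against 80.9% to 94.9% in the other 5 clones. By cytogenetic band, C1 had a chromosome 13 median of -0.35 in q11-q12 and of -0.06 to -0.15 in the 3 stretches farther along, whereas over the 4 stretches C4 ran from -0.37 to -0.68, CP from -0.34 to -0.61, C3 from -0.92 to -1.06, C4A from -1.01 to -1.62 and C5 from -0.42 to -0.49. On chromosome 15 the 4 stretches ran from -0.53 to -0.82 in C1, -0.70 to -1.23 in C4, -0.35 to -0.52 in CP, -0.58 to -0.80 in C3, 0.02 to 0.18 in C4A and -0.15 to -0.43 in C5. At 72 h the chromosome 13 median was -0.04 to -0.15 in TC32 and -0.16 to -0.20 in TC71, so that all 3 TC71 arrays lay below clone C1 at -0.15. For chromosome 15 it was -0.13 to -0.16 in TC32, below every parental array, and -0.02 to 0.02 in TC71. In bulk RNA, fewer cells that express these genes and less RNA per cell cannot be told apart.

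**Figure D5:**
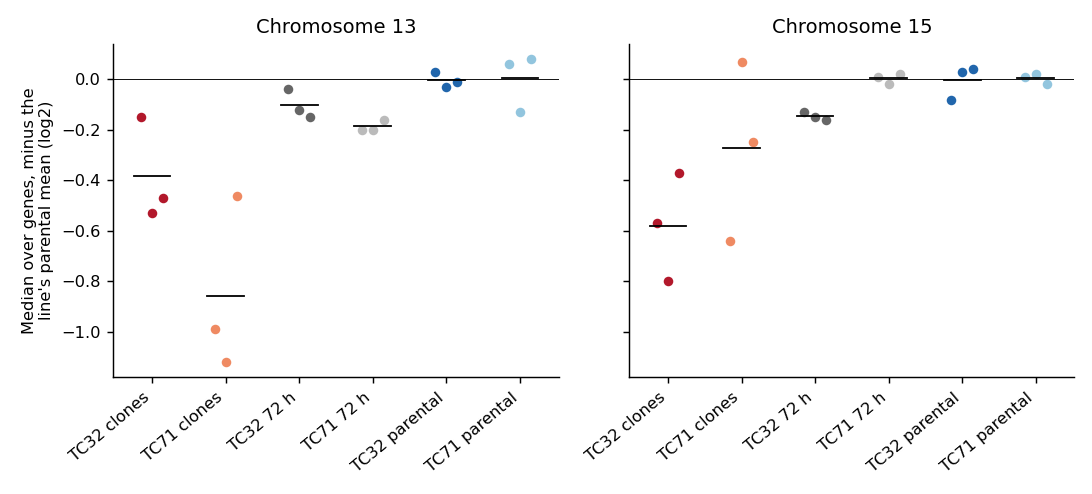
Median over the genes of chromosome 13 (left, 152 genes) and chromosome 15 (right, 257 genes) on each array, as the difference from the mean of the line's parental arrays (vertical axis, log2), with black bars at group means. All 6 clones lie below the parental arrays for chromosome 13, and for chromosome 15 clone C4A at 0.07 lies above them while the other 5 clones lie below.

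Genes for the drug's target were examined next. EWSR1 changed by -0.05 ± 0.06 (adjusted p = 0.790) and FLI1 by -0.12 ± 0.17 (adjusted p = 0.816), and neither measures the fusion transcript itself. DHX9 was at 1.23, 1.20 and 1.68 in TC32 clones against 1.07, -0.03 and -0.23 in parental arrays, where replicate 1 came close to the clones. On the TC71 side it was at 0.81, -0.04 and 1.61 in clones against 0.03, -0.09 and 0.52 in parental arrays, which overlapped. Its pooled change was 0.87 ± 0.31 and did not pass (adjusted p = 0.213). Without TC32 parental replicate 1 it was 1.02 (adjusted p = 0.170). Its 3 probe sets gave 0.02, 1.33 and 1.26. DHX9 was below 0 after 72 h, at -0.45 ± 0.43 in TC32 and -1.03 ± 0.43 in TC71.

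Of 39 genes activated by EWS-FLI1, CCND1 and IGF1 rose (5.13% passing, against 1.43% of all genes). None fell and 37 did not pass, with a median change of 0.04. These are unlike sets, since 35 of the 39 but only 8132 of all 12750 genes had an SD of at least 0.1. CCND1, the cyclin that drives CDK4 and CDK6, was at 0.26, 0.03 and 0.60 in TC32 clones against -0.23, -0.25 and -0.39 in parental arrays. For TC71 the values were 0.85, 1.29 and 0.73 in clones against -0.16, -0.04 and -0.41 in parental arrays. CCND1 rose by 0.87 ± 0.15 (1.83-fold, adjusted p = 0.0345) and passed in 5 of the 12 fits that left out 1 array. Without TC32 parental replicate 1 its adjusted p was 0.0573, and the highest was 0.0952 without TC71 parental replicate 1. Without its _x_at and _s_at probe sets CCND1 changed by 0.61 (adjusted p = 0.105). CCND1 was the only one of 15 D cyclins, CDK4/6 and CDK inhibitors to pass. IGF1, the ligand of the IGF1 receptor, was at 1.23, 1.49 and 0.56 in TC32 clones against -0.87, -1.11 and -1.23 in parental arrays. TC71 values were 1.03, 1.43 and 1.81 in clones against -0.05, 0.78 and 0.08 in parental arrays. No clone overlapped the parental arrays of its line, and IGF1 rose by 1.66 ± 0.26 (adjusted p = 0.0255), with 1.55 to 1.72 over its 4 probe sets. Its adjusted p was 0.0573 without TC32 parental replicate 1. After 72 h IGF1 stood at -1.63 ± 0.05 in TC32 and -0.29 ± 0.48 in TC71. Of 18 IGF pathway genes IGF1 rose and 17 did not pass. The receptor IGF1R changed by -0.46 ± 0.16 (adjusted p = 0.185). NKX2-2 and NR0B1, direct targets of the fusion, changed by 0.62 ± 0.26 (adjusted p = 0.286) and 0.18 ± 0.16 (adjusted p = 0.693). Of 42 genes repressed by EWS-FLI1, TIMP3 rose (2.38% passing) and 41 did not pass, with a median of 0.01.

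Of 40 ABC transporters, ABCA5 rose and 39 did not pass, with a median of -0.01. ABCA5, a lysosomal lipid transporter, was at 0.27, 0.93 and 0.10 in TC32 clones against -0.16, -0.23 and -0.50 in parental arrays. On the TC71 side it was at 1.25, 1.21 and 1.13 in clones against -0.05, 0.49 and 0.03 in parental arrays. It rose by 0.88 ± 0.16 (adjusted p = 0.0354, and 0.0573 without TC32 parental replicate 1). The multidrug exporter ABCB1 changed by -0.06 ± 0.41 (adjusted p = 0.947), ABCC1 by -0.11 ± 0.09 (adjusted p = 0.655) and ABCG2 by -0.01 ± 0.01 (adjusted p = 0.724). ABCG2 stayed between -0.02 and 0.02 on the 12 arrays.

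Of the 37 gene lists, 17 held at least 1 passing member, and 8 of the 1193 listed genes rose and 7 fell, or 1.26% against 1.43% of all genes. In splicing factors, SNRPB and SNRPD3, core proteins of the spliceosomal particles, fell and 64 of 66 genes did not pass (median 0.01). SNRPB was at -0.002, -0.44 and -0.17 in TC32 clones and -0.35, 0.01 and -0.28 in TC71 clones, against 0.10 to 0.31 on the parental arrays, and fell by 0.43 on the log2 scale (adjusted p = 0.0405). SNRPD3 fell by 0.37 (adjusted p = 0.0340). Of 77 cytosolic ribosomal proteins, RPL21 fell by 0.38 (adjusted p = 0.0223) and 76 did not pass, with a median of -0.06. The only RPL21 probe set has 20 alignments in the array annotation, the first on chromosome 10, so its signal cannot be assigned to the RPL21 gene on chromosome 13. Of 48 tubulins and microtubule-binding proteins, TUBGCP4, a gamma-tubulin complex subunit encoded on chromosome 15, fell by 0.71 (adjusted p = 0.0442). Of 25 cancer-testis antigens, CTAG2 fell by 1.16 (adjusted p = 0.0389), with a change of -1.71 in TC32 and -0.61 in TC71, but 1 of its 2 probe sets changed by -0.02 and the other by -2.31. Of 37 genes of TGF-beta signalling and ID genes, BMPR2, a receptor for bone morphogenetic proteins, rose by 1.28 ± 0.25 (adjusted p = 0.0442). Of 22 smooth muscle and contractile genes, TPM4, a tropomyosin of actin filaments, rose by 1.24 ± 0.19 (adjusted p = 0.0226). Of 44 genes of the integrated stress and unfolded protein response, HSP90B1, a chaperone of the endoplasmic reticulum, rose by 0.45 ± 0.08 (adjusted p = 0.0405). Leaving out TC32 parental replicate 1 gave an adjusted p of 0.0791 for SNRPB, 0.0781 for TUBGCP4, 0.0749 for CTAG2 and 0.0814 for BMPR2. No member passed among 59 G2/M and 64 S phase genes, 35 NRF2 and detoxification genes, 16 glutathione transferases, 36 apoptosis regulators or 64 respiratory chain genes. The same held for 35 immediate early and AP-1 genes, 37 of hypoxia and glycolysis, 23 of cholesterol synthesis and uptake, 32 heat shock proteins, 17 of MHC class I presentation, 38 of striated muscle, 36 neuronal genes, 30 of adhesion, 21 of retinoic acid metabolism and 8 of PDGF signalling.

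None of 50 interferon-stimulated genes passed. At an unadjusted p under 0.05 by limma, 3 were higher, against 977 of all 12750 genes. A positive change was seen in 42, against 4802 of all genes, and the list's median was 0.62. These are unlike sets, since 47 of the 50 but only 8132 of all genes had an SD of at least 0.1. Against the mean of the line's parental arrays, the list's median was 4.09 in TC32 C4 and 1.38 in TC71 C4A, and between -0.02 and -0.01 in the other 4 clones. Without C4 and C4A the pooled median was -0.01. Single members departed from these medians. IFIT1 was at -4.43 in C3 and -7.09 in C5, against -2.98 to -1.73 on TC71 parental arrays. ISG15 was at -3.29 and -4.31 there, against -1.75 to -1.45. In contrast, IFI27 was at -0.14 in C3 and C5, against -0.13 on TC71 parental arrays, and MX1 at -0.01, against -0.003 to 0.002. None of 29 markers of other cell types passed, and 25 of them had an SD under 0.1. Among the exceptions, PTPRC, the leukocyte surface phosphatase CD45, was at 3.31 in C1, 4.44 in CP and 5.13 in C3 but at -0.02, 0.13 and -0.02 in C4, C4A and C5, against -0.01 to 0.01 on the parental arrays. Its change of 2.16 did not pass (adjusted p = 0.325). EPCAM, an epithelial adhesion molecule, was at 2.88 in CP and 3.41 in C3, with TC71 parental replicate 2 at 2.28. The median of the 29 markers lay between -0.01 and 0.02 in the clones and between -0.004 and 0.003 on the parental arrays. The part of these markers in the other results was not tested.

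No gene passed the test for a different change in TC32 and TC71 at an adjusted p under 0.05 by limma, while 1240 genes (9.73%) had an unadjusted p under 0.05. Without TC32 parental replicate 1, 91 genes passed this test, and 48 passed without clone C1. A gene that missed the threshold has not been shown to change alike in both lines. In the same fit, 257 genes (2.02%) passed for TC32 alone and 12 (0.0941%) for TC71 alone. Among the common genes, 41 of 84 rises and 27 of 89 falls passed for TC32 alone, and 4 rises and 2 falls for TC71 alone. The median common rise was 0.71 in TC32 and 0.67 in TC71, and the median common fall -0.73 in TC32 and -0.61 in TC71. Among the 41 genes given by the naming rule, CTAG2 had the lowest adjusted p for a line difference (-1.10 ± 0.25, adjusted p = 0.247).

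The 15 common genes that passed in every fit leaving out 1 array were mostly changes of moderate size. Beside TIMP3, DDX6 and PRRX2, they were the rises of MFHAS1 (1.05 ± 0.13), MYO1D (0.95 ± 0.09), ZFR (0.86 ± 0.08), SASH1 (0.76 ± 0.09), EHBP1 (0.66 ± 0.05) and BCLAF1 (0.37 ± 0.04), and the falls of VWA8 (-0.95 ± 0.11), RPUSD2 (-0.91 ± 0.08), FUBP1 (-0.76 ± 0.09), OAZ2 (-0.65 ± 0.08), EID1 (-0.61 ± 0.08) and USP12 (-0.45 ± 0.05). Probe sets of some of these genes differed. ZFR had 0.21, 0.14, 1.71 and 1.39, BCLAF1 0.68, -0.16, 0.32 and 0.62, EHBP1 0.95 and 0.36, and USP12 -0.93 and 0.02. MYO1D encodes an unconventional myosin and SASH1 an adaptor protein, and ZFR, BCLAF1 and FUBP1 encode nucleic acid-binding proteins. Of these 6 falls, VWA8 and USP12 lie on chromosome 13 and RPUSD2, OAZ2 and EID1 on chromosome 15. EHBP1 had the smallest standard error for its size, at 0.47, 0.63 and 0.38 in TC32 clones and 0.48, 0.50 and 0.34 in TC71 clones, against -0.35 to -0.10 on the parental arrays.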

How the data were processed

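Total RNA of the cell lines was amplified and labelled (3′ IVT Express kit), per the labels' protocols, and measured on Affymetrix Human Genome U133A 2.0 arrays, per the design text. Per the design text, the authors processed the scans in GeneSpring GX 12.1 with default settings. The deposited values are log2, each probe set relative to its median over the 18 arrays, and ran from -10.65 to 11.66. A second deposited table was identical. Raw scans were not used here.

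Of 22277 probe sets, 20374 with exactly 1 gene were averaged into 12750 genes, with symbols and chromosomes taken through Entrez identifiers from RefSeq (GRCh38.p14). No gene was filtered out, although 35.0% of probe sets had an SD under 0.05. The number of arrays limits the precision.

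The main fit was limma 3.58.1 (R 4.3.3) with line and condition as terms on 12 arrays (9 residual degrees of freedom, 0.70 prior), with Benjamini-Hochberg adjustment over 12750 genes. It was run on simulated independent Gaussian arrays with known changes. These held no outlying clones and no line-specific changes, so the run does not show how the fit behaves with them. Line-specific changes and their difference came from the fit of the 4 group means of these arrays. Errors of changes are SEs, and errors of group means are SDs.

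Named genes were the 12 largest rises and 12 largest falls among common genes, from each list up to 2 passing members (those that changed most), and EWSR1, FLI1, DHX9, CCND1, ABCB1, ABCC1 and ABCG2. Genes that the rule gives but the text does not name are not reported here. Others were named after their values were seen, as list partners, markers or genes that passed in every fit that left out 1 array. The comparison, lists and rules were chosen with earlier results of these data known. Alternatives covered normalization, probe sets, filters, the model, thresholds and arrays left out.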

Additional observations from a re-analysis of the deposited data

Results flagged for a closer look

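Among 39 genes given by the naming rule, the 6 clones and the 6 parental arrays were each checked for 1 array far from the other 5, and 7 of 78 groups held one. Chance flags about 1 in 20 groups, and the groups mix both lines. MEIS2 was at 0.09 in TC71 clone C5, against -5.03 to -3.85 in the other clones. PRKAB2 was at 3.65 in TC32 clone C4, against 1.16 to 1.97 in the other clones, and at 0.46 on TC71 parental replicate 2, against -0.83 to -0.41 on the other parental arrays. TPM4 was at -0.96 on TC32 parental replicate 3, against -0.37 to -0.03. SNRPD3 was at -0.004 on TC32 parental replicate 1, against 0.11 to 0.17. ABCC1 was at -0.41 in TC71 clone C5, against -0.001 to 0.04 in the other clones, and at 0.38 on TC32 parental replicate 2, against -0.04 to 0.03.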

How the results depend on the processing

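All 34 named common genes kept their direction under every alternative run on them. Leaving out arrays could not reverse it, because common genes were chosen with all clones beyond all parental arrays of the line. A direction could change only where the values or probe sets were changed. The call was kept in 472 of 804 combinations of gene and alternative. Against 182 called and 173 common genes, the counts were 287 called with 4 group means, 830 called and 356 common with all 6 group means, 333 called without genes of SD under 0.1, and 46 and 46 without _x_at and _s_at probe sets. An adjusted p under 0.01 left 10 and 10. An adjusted p under 0.05 together with a 2-fold minimum left 48 and 45. Without TC32 parental replicate 1 and TC71 parental replicate 2 together, 47 and 47 genes passed, and without these and clones C4 and C4A, 68 and 68. Leaving out 1 array gave 18 to 1116 called genes, 18 to 1036 common genes and 0 to 91 line differences. Against 0 line differences, 1 was found with the probe set of the largest SD, 1 over every probe set, 9 after quantile normalization, 8 with the SD filter, 72 with the pair of parental arrays left out and 99 with the 4 arrays left out. Chosen after the data were seen, leaving out clone CP with centring gave 103 called, 103 common and 6 line differences, and leaving out C4 and C4A gave 19 line differences. The causes were not tested, beyond the fewer arrays in some fits. The chromosome 13 median ran from -0.75 to -0.54 and that of chromosome 15 from -0.53 to -0.36 over all alternatives. The counts of common falls varied far more, from 2 to 54 on chromosome 13 and from 3 to 69 on chromosome 15. The fit with 6 group means shares the 72 h arrays for its spread only. The second table was identical and gave nothing new. No paired analysis was possible because the clones carry clone names and no replicate numbers that match parental arrays. Signal over background is not known without levels, so dim genes could not be told from unchanged ones.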
